A study of Mus musculus with 22 samples.

Results

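Heat shock proteins and their DNAJ co-chaperones were followed in ulnar bone of mice with and without a conditional deletion of Tlr4, after mechanical loading of 1 limb. The set was chosen by gene symbol alone: the numbered Hspa and Hspb genes, the Hsp90 genes, Hspd1, Hspe1, Hsph1 and the numbered Dnaja, Dnajb and Dnajc genes, with pseudogene names left out. This gave 68 of the 25471 genes in the count tables, made up of 13 Hspa, 8 Hspb, 3 Hsp90, 4 Dnaja, 12 Dnajb and 25 Dnajc genes together with Hspd1, Hspe1 and Hsph1. Of these, 66 passed the filter on low counts and were tested; Hspb9 and Dnajb7 did not, with at most 0.171 and 0.255 CPM (counts scaled to library size) in any library.

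From 11 mice the midshaft region of the ulna, one of the bones of the forelimb, was taken, and total RNA of each bone was sequenced. The right ulna of every mouse had been loaded and the left had not, so each mouse gave 1 loaded and 1 non-loaded library. Loading and side of the body therefore cannot be told apart. The groups were CKO loaded (4 libraries), CKO non-loaded (4), WT loaded (7) and WT non-loaded (7), where CKO is a conditional knockout of Tlr4, a receptor of innate immunity, and WT is wildtype. The series title places the receptor in osteoblasts, the bone-forming cells; of the Cre driver, the strain, the age of the mice, the loading regime and the time of harvest, none is given in the sources used here. Every non-loaded bone came from a mouse whose other ulna had been loaded.

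Heat shock proteins are molecular chaperones, which bind unfolded protein and help it to fold, refold or be degraded. HSP70 proteins (Hspa genes) work in cycles of ATP hydrolysis that J-domain proteins (Dnaj genes) start and nucleotide exchange factors reset, and HSP90 takes over clients that HSP70 hands on. Small heat shock proteins (Hspb genes) hold unfolding protein without ATP and are abundant in muscle, while the HSP60 and HSP10 pair (Hspd1, Hspe1) folds protein inside mitochondria. Under stress the transcription factor HSF1 induces a part of the set, with Hspa1a and Hspa1b as its classical targets, through heat shock elements built of inverted GAA units.

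Sequences upstream of the start sites were read first, since they differ in what they hold of that element. A pair of inverted units, GAANNTTC or TTCNNGAA (each its own reverse complement, so that both strands are covered, and overlapping matches are each counted), stood in the 250 bases before an annotated start in 14 of the 56 members with a window (25.0%), against 3932 of 27025 genes (14.5%). A run of 3 units, GAANNTTCNNGAA or its reverse complement TTCNNGAANNTTC, stood in 3 members, Dnajb6, Hspd1 and Hspe1 (5.36%), and in 139 of all genes (0.514%). The Hspd1 and Hspe1 windows overlap and hold the same stretch on opposite strands, so these members share their matches and are not independent. Hspa1a and Hspa1b, with nearly identical windows, are likewise counted as separate members. The windows are from RefSeq on GRCm38.p6, and a match is a run of letters, not a bound site. Hspa2 and Hspb7, higher in 9 of 11 loaded bones, hold no match, and neither do the 2 windows of Dnajb1. Dnaja1 and Dnajb6 hold matches, with log2 loading differences of 0.01 and 0.02 over both genotypes. Whether a match goes with a loading difference was not tested. The windows below belong to 4 members that were higher in most loaded bones and to Hspd1, which has 3 overlapping matches and a loading difference near 0. They were chosen after the values were seen. Capitals mark the matches, and each is written 5′ to 3′ on the strand of its gene.
Hspa1a: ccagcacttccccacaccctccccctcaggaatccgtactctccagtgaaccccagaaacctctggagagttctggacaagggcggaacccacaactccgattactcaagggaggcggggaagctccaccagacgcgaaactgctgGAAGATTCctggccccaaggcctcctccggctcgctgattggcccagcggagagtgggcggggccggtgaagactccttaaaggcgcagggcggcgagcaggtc
Hspa1b: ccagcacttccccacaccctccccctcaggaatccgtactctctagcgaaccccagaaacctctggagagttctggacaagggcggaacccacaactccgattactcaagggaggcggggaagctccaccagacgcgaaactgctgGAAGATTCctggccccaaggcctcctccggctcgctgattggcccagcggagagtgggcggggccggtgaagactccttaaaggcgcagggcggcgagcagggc
Dnajb4: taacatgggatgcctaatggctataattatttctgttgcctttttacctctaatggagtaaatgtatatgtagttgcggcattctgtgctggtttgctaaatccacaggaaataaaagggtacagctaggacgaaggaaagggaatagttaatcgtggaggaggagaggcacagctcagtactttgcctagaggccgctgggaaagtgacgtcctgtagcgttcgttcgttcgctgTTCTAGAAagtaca
Hspb1: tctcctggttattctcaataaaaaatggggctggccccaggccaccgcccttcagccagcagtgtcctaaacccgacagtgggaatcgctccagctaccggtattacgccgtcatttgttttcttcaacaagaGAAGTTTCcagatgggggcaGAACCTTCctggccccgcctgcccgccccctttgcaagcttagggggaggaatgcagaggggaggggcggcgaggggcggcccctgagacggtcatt
Hspd1: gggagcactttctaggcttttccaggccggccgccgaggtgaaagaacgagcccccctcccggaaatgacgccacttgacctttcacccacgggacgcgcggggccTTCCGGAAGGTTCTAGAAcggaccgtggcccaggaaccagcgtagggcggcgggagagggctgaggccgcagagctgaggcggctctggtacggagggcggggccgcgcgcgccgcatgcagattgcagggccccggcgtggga
The Hspa1a window is chr17:34972157-34972406 on the minus strand and the Hspa1b window chr17:34959239-34959488 on the minus strand. They are identical at 247 of 250 positions, and the match begins 104 bases before the start in both. The Dnajb4 window (chr3:152193846-152194095, minus strand) has its match 14 bases before its start. It is 1 of 2 windows of the gene and lies within the annotated span of the gene, and the other window holds no match. The Hspb1 window (chr5:135887669-135887918, plus strand) has a pair of matches, beginning 117 and 97 bases before the start. The Hspd1 window (chr1:55087933-55088182, minus strand) has 3 overlapping matches, the first 144 bases before its start. This window runs into the Hspe1 gene, which lies head to head with Hspd1. Hspd1 too has 2 windows, and the other holds no match.

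Library totals lay between 21999891 and 42833729 counts. Tlr4 averaged 29.2 ± 3.16 CPM in loaded bones of CKO and 33.4 ± 4.82 CPM in those of WT mice, and 30.1 ± 3.43 CPM in non-loaded bones of CKO and 32.5 ± 4.89 CPM in those of WT mice (SD, n = 4 CKO and n = 7 WT), so its level in whole bone did not set the genotypes apart. Ltbp2, a matrix protein gene, was picked afterwards for its values by genotype. The main edgeR fit called 0 genes between CKO and WT in loaded or in non-loaded bone. Ltbp2 had 38.4 CPM in the loaded library labelled CKO 688, against 226 to 344 CPM in CKO non-loaded bones. It had 380 CPM in the loaded library labelled WT 686, against 26.5 to 73.5 CPM in WT non-loaded bones. At this gene both loaded libraries lay outside the non-loaded range of their labelled genotype. Since these ranges are from non-loaded bones, a loading effect on the gene is not separated from a conflict of labels. Whether the libraries were exchanged was not tested, and counts by genotype are given below with and without these mice. Skeletal muscle markers took 9.25% to 12.7% of counts in CKO loaded, 2.31% to 12% in CKO non-loaded, 4.52% to 12.2% in WT loaded and 3.68% to 11.3% in WT non-loaded bones, with the lowest shares in the non-loaded bones of CKO mouse 691 and WT mouse 699. Osteoblast markers took 0.253% to 3.28% of counts and osteocyte markers 0.0547% to 0.145% in any library, so the bone cells that the tissue label implies were present beside muscle. In such bulk samples fewer cells of a type and less RNA per cell cannot be told apart.

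The chaperones of this set took 0.366% to 0.598% of the counts of a library. Per gene length, in TPM (counts divided by exon length and scaled to a common total) over all 22 libraries, the constitutive HSP70 Hspa8 had the highest mean level at 326.7 TPM and the constitutive HSP90 Hsp90ab1 the next at 264.5 TPM. The small heat shock proteins Hspb7, Hspb1 and Hspb6 followed at 158.1, 151.2 and 108.8 TPM. The endoplasmic reticulum HSP70 Hspa5, known as BiP, had 81.5 TPM and the mitochondrial HSP70 Hspa9 had 68.74 TPM. The stress-inducible Hspa1a and Hspa1b were low, at 6.684 and 6.329 TPM. Neighbours in this order lay within the spread between libraries: Hspa8 ran from 184.8 to 453.9 TPM and Hsp90ab1 from 156.7 to 360.4 TPM.

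**Figure D1:**
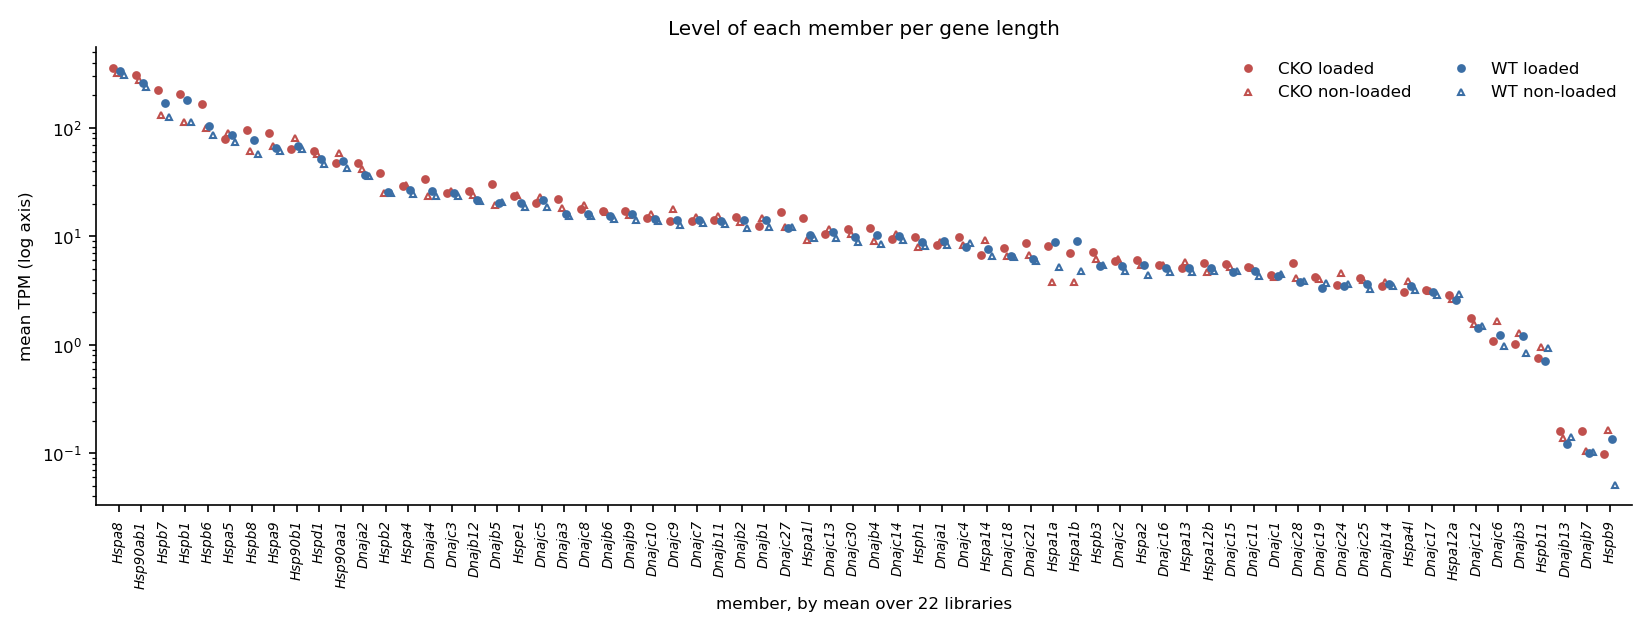
Mean TPM of each of the 68 genes in the 4 groups, on a log axis, ordered by the mean over 22 libraries; filled circles are loaded and open triangles non-loaded bones, red CKO and blue WT. Hspa8 leads at 326.7 TPM, and Hspa1a and Hspa1b at 6.684 and 6.329 TPM stand in the lower part of the order with visible gaps between loaded and non-loaded bones.

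The first question was whether loading changed the chaperones. No gene of the set was called at an adjusted p under 0.05 in loaded against non-loaded bone, in CKO, in WT or over both genotypes (edgeR's quasi-likelihood test, Benjamini-Hochberg over 18793 genes). Over all genes 0.016% were called in CKO (3 genes), 0.00532% in WT (1 gene) and 0.0905% over both genotypes (17 genes), and a count of 0 of 66 is near these shares. At an unadjusted p under 0.05 the numbers were 3 of 66 in CKO (4.55%, against 3.6% of all genes), 4 of 66 in WT (6.06% against 2.34%) and 8 of 66 over both genotypes (12.1% against 3.17%). DESeq2 and both limma voom fits called 0 of the set in each of these contrasts, where over both genotypes DESeq2 called 33 of all genes, voom with quality weights 90 and voom with the mouse as a random effect 19. In the same order the fits called 22, 18 and 4 of all genes in CKO and 11, 34 and 1 in WT. The counts by unadjusted p turned on single mice. The share of all genes at this cutoff was not counted in these refits, so their counts cannot be set against other genes. In CKO the count of 3 became 15 without CKO mouse 688, 6 without WT mouse 699 and 12 without mice 686 and 688. In WT the count of 4 became 1 without mouse 690, 2 without mouse 686 or mouse 692, and 2 without mice 686 and 688. Over both genotypes the count of 8 fell to 4 without CKO mouse 691 and to 5 without CKO mouse 693, and was 9 without mice 686 and 688. Other genes did differ between loaded and non-loaded bone over both genotypes: 3 of 19 immediate-early genes tested were called, with Fosb, an AP-1 family gene, at a log2 fold change of 2.06 ± 0.23 (SE, edgeR adjusted p = 9e-05).

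The stress-inducible HSP70 pair gave the highest estimates of the set. Hspa1a had 12.8, 17, 14.4 and 22.5 CPM in the loaded bones of CKO mice 688, 691, 693 and 698, against 9.74, 3.23, 8.23 and 10.9 CPM in their non-loaded bones. In WT mice it had 9.78, 21.5 and 24.6 CPM (lowest, median and highest) in loaded bones, against 5.81, 12.6 and 16 CPM in non-loaded bones. The loaded and non-loaded values did not overlap in CKO and overlapped in WT, and the loaded bone was the higher in 10 of 11 mice, WT mouse 694 being the exception. Over both genotypes the log2 fold change was 0.85 ± 0.23 (SE, 1.81-fold, edgeR adjusted p = 0.523), at 1.06 ± 0.37 in CKO and 0.65 ± 0.28 in WT. Among the 18793 genes its p had rank 48. Without mice 686 and 688 the estimate was 0.93.

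Hspa1b, the second inducible copy, had 8.38, 13.3, 8.34 and 24.8 CPM in loaded bones of the same CKO mice, against 6.99, 3.55, 6.38 and 12.6 CPM in non-loaded bones. In WT it had 8.48, 16.5 and 28.2 CPM in loaded bones, against 6.61, 10.1 and 13.9 CPM in non-loaded bones. Values overlapped in both genotypes, and the loaded bone was higher in 9 of 11 mice. The log2 fold change was 0.83 ± 0.26 (SE, edgeR adjusted p = 0.826). The coding sequences of the pair, 1926 and 1929 bases, are identical at 1918 of 1929 aligned positions (99.4%), so the authors' estimated counts may divide shared reads between them. With both summed the log2 fold change was 0.84 (edgeR adjusted p = 0.596).

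The other cytosolic HSP70 genes differed less. All 5 of this class had estimates above 0 over both genotypes, with a median of 0.28. Hspa1l had 0.28, with a 95% interval from -0.20 to 0.77, and was higher in 6 of 11 loaded bones. Hspa2, an HSP70 best known from spermatogenesis, had 0.19 ± 0.08 (edgeR adjusted p = 0.999) and was higher in 9 of 11 loaded bones. The abundant Hspa8 averaged 1066 ± 196 CPM in loaded and 929.8 ± 61.6 CPM in non-loaded bones of CKO mice (SD, n = 4), and 1005 ± 82.2 CPM in loaded and 978.9 ± 164 CPM in non-loaded bones of WT mice (SD, n = 7). Its log2 fold change was 0.12 ± 0.10, within the spread between replicates. The HSP110-type exchange factors Hsph1, Hspa4 and Hspa4l stood at 0.17 ± 0.14, 0.02 ± 0.06 and -0.11 ± 0.12.

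J-domain proteins of the cytosol held the third small p. Dnajb4, a heat-inducible HSP40 that works with HSP70, had 63.6, 71, 76.3 and 78.9 CPM in CKO loaded bones, against 54.8, 43.8, 60.5 and 60.2 CPM in the non-loaded bones of the same mice. In WT it had 52.4, 60.3 and 73.5 CPM in loaded bones, against 44.7, 54.1 and 68.6 CPM in non-loaded bones. The CKO groups did not overlap, and the loaded bone was higher in 10 of 11 mice. The log2 fold change was 0.28 ± 0.09 over both genotypes (SE, edgeR adjusted p = 0.781), with 0.40 ± 0.14 in CKO and 0.16 ± 0.11 in WT.

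Dnajb1, the main stress-inducible HSP40 and an HSF1 target, did not show this pattern. It had 29.8, 27.8, 28.7 and 23.6 CPM in CKO loaded bones, against 21.3, 44.8, 28.7 and 27.1 CPM in non-loaded bones. In WT it had 23.2, 29.6 and 44.5 CPM in loaded bones, against 24.1, 27.1 and 46.6 CPM in non-loaded bones. The log2 fold change was -0.03 ± 0.14, and 5 of 11 mice were higher in the loaded bone. Dnaja4 had a log2 fold change of 0.29 ± 0.15, as large as that of Dnajb4 with a wider error, Dnajb5 had 0.24 ± 0.23 and Dnajb2 0.17 ± 0.08, none past the threshold (edgeR adjusted p = 0.999 for each). Dnaja1 (0.01 ± 0.11), Dnaja2 (0.07 ± 0.12) and Dnajb6 (0.02 ± 0.06) lay near 0 on the log2 scale. Over this class 9 of 10 tested genes were above 0, with a median of 0.08.

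**Figure D2:**
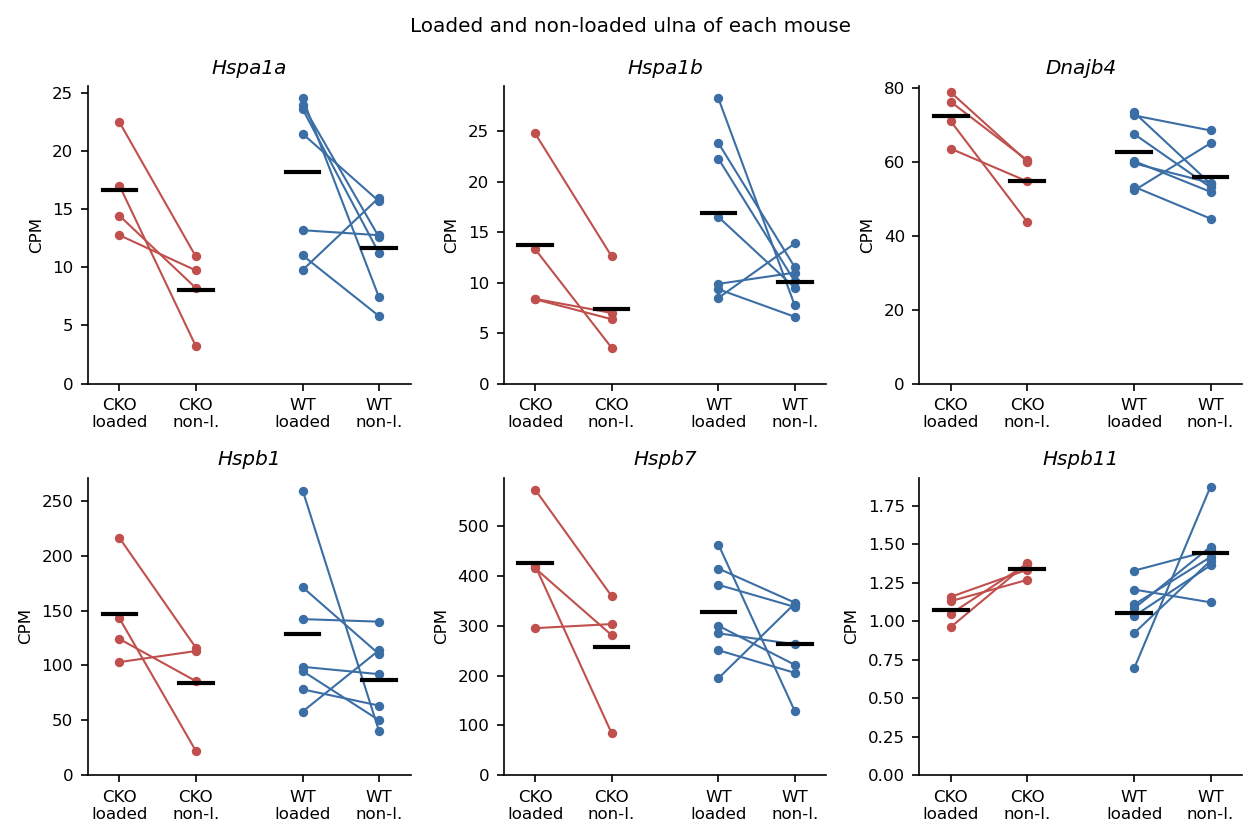
CPM of 6 chaperone genes in each mouse, with a line joining its loaded (left) and non-loaded (right) ulna; red is CKO, blue is WT, and black bars are group means. Hspa1a is higher in the loaded bone in 10 of 11 mice and Hspb11 in 1 of 11, while Hspb1 and Hspb7 have their lowest CKO values, 22.1 and 84.5 CPM, in the non-loaded bone of mouse 691.

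All 6 small heat shock proteins tested had estimates above 0 over both genotypes (median 0.44), each below those of Hspa1a and Hspa1b and none past the threshold. Hspb1, known as HSP25, which binds actin and unfolding protein, had 103, 143, 124 and 216 CPM in CKO loaded bones, against 113, 22.1, 85.7 and 116 CPM in non-loaded bones. In WT it had 57.9, 98.7 and 260 CPM in loaded bones, against 40, 92 and 140 CPM in non-loaded bones. The groups overlapped in both genotypes, and 9 of 11 mice were higher in the loaded bone. The log2 fold change was 0.68 ± 0.30 (SE, edgeR adjusted p = 0.999), and 0.33 without mice 691 and 699.

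Hspb7, a small heat shock protein of heart and skeletal muscle, had 295, 421, 416 and 574 CPM in CKO loaded bones, against 304, 84.5, 282 and 360 CPM in non-loaded bones. In WT it had 195, 300 and 464 CPM in loaded bones, against 128, 263 and 347 CPM in non-loaded bones. Its log2 fold change was 0.52 ± 0.23 (SE, edgeR adjusted p = 0.999) and 0.26 without mice 691 and 699. Hspb8, which acts with the co-chaperone Bag3 in selective autophagy, stood at 0.46 ± 0.28, Hspb6 at 0.42 ± 0.24, Hspb2 at 0.26 ± 0.25 and Hspb3 at 0.03 ± 0.26. Exons of Hspb2 overlap those of Cryab on the other strand. Hspb7 and Hspb1 led this class in estimate and number of mice, while Hspb3 was higher in 5 of 11 loaded bones.

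Hspb11 had the lowest estimate of the set and did not pass the threshold. Despite its symbol it encodes IFT25, a subunit of the intraflagellar transport machinery of cilia, and it was counted apart from the small heat shock proteins. It had 1.05, 0.962, 1.13 and 1.16 CPM in CKO loaded bones, against 1.37, 1.38, 1.27 and 1.33 CPM in non-loaded bones. In WT it had 0.693, 1.08 and 1.33 CPM in loaded bones, against 1.12, 1.42 and 1.87 CPM in non-loaded bones. The CKO groups did not overlap, and the loaded bone was lower in 10 of 11 mice. The log2 fold change was -0.39 ± 0.12 over both genotypes (SE, edgeR adjusted p = 0.781) and -0.46 ± 0.14 in WT. The gene had 22 to 62 counts in a library, so each value rests on few reads.

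HSP90 and the chaperones of the organelles differed little. Hsp90ab1, the constitutive HSP90, had 522, 636, 586 and 798 CPM in CKO loaded bones and 585, 546, 532 and 595 CPM in non-loaded bones, with a log2 fold change of 0.10 ± 0.09 over both genotypes. Hsp90aa1, the inducible form, had -0.05 ± 0.17. Of 9 genes placed in the endoplasmic reticulum class 2 were above 0 (median -0.04). Hspa5 stood at -0.01 ± 0.13 and the HSP90 paralog Hsp90b1 at -0.13 ± 0.12. Of 8 genes placed in the mitochondrial class 6 were above 0 (median 0.07), with Hspa9 at 0.18 ± 0.14 and Hspd1 at 0.08 ± 0.10. Among the DNAJC genes placed in neither class 10 of 18 were above 0 (median 0.01). These 18 are a remainder that was not sorted by place in the cell, so the organelle classes may be incomplete. The lowest of them was Dnajc24, which acts in diphthamide synthesis, at -0.23 ± 0.10 (SE, edgeR adjusted p = 0.999). Across the set the median was 0.034, against -0.013 over all genes tested, and 42 of 66 were above 0 (63.6%, against 45.7% of all genes). The median was 0.01 with covariates for muscle and marrow content and lay between 0.007 and 0.081 over all settings tried.

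The intervals show how large a change these data leave room for. For loading over both genotypes the 95% interval lay within 1.5-fold in either direction for 53 of 66 genes and within 2-fold for 62. The 4 whose interval passed 2-fold were Hspa1a, Hspa1b, Hspb1 and Hspb8. Within 1.5-fold lay 32 of 66 in CKO alone and 50 of 66 in WT alone.

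**Figure D3:**
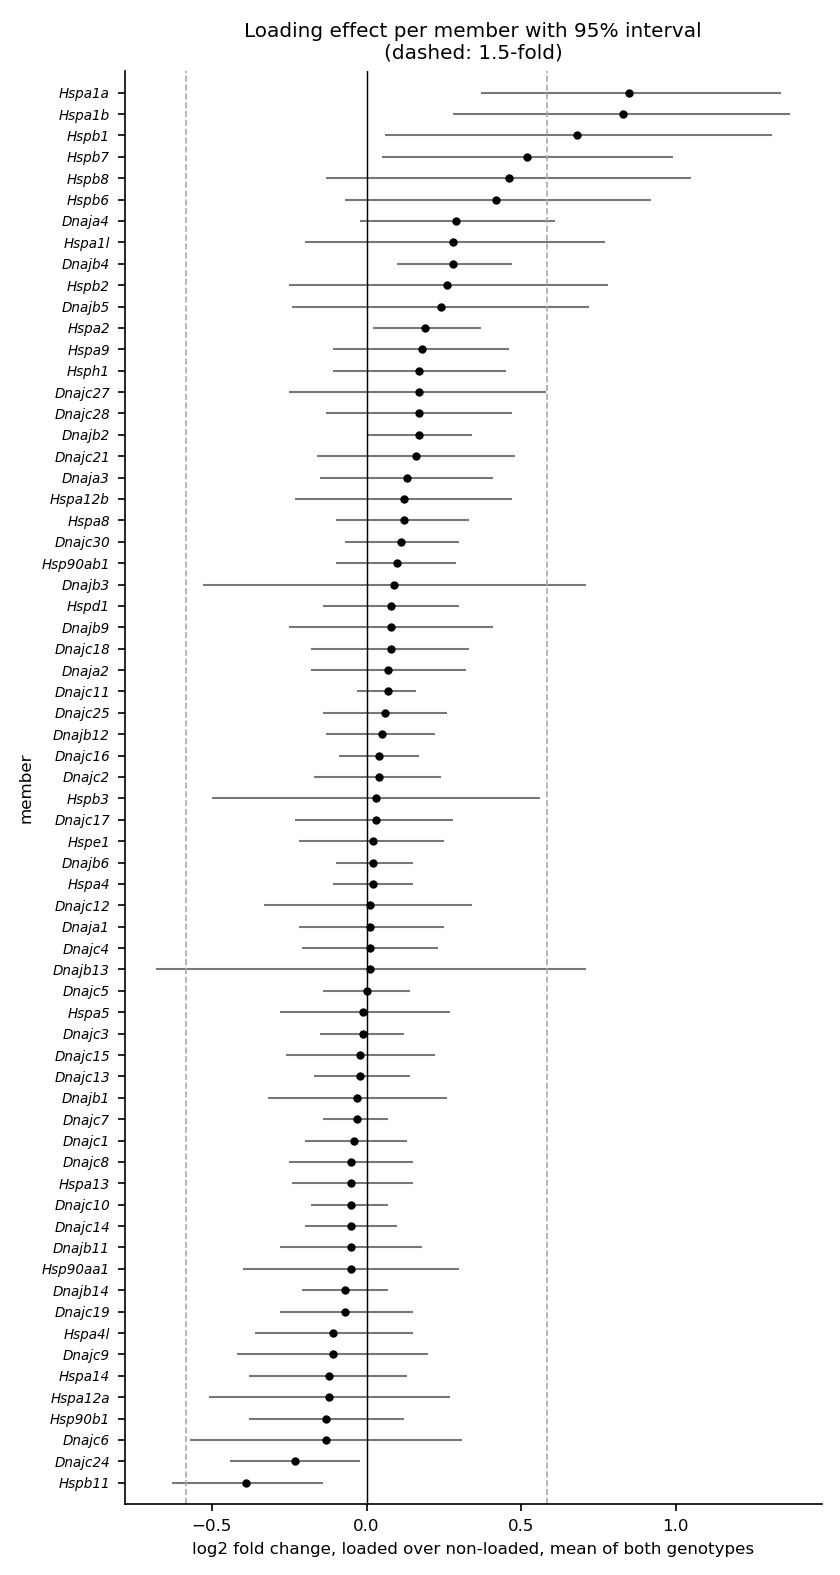
Log2 fold change of loaded over non-loaded bone, mean of both genotypes, for the 66 genes tested (points), with the 95% interval (lines) and 1.5-fold marked by dashes. Hspa1a and Hspa1b stand highest at 0.85 and 0.83, Hspb11 lowest at -0.39, and no gene passed the adjusted threshold.

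The limb differences of many chaperones ran together with the muscle content of the bones. The loaded minus non-loaded difference of a score of 12 skeletal muscle markers ranged over the mice from -1.27 (WT mouse 694) to 2.55 (CKO mouse 691) on the log2 scale. Over the 11 mice the limb differences of 46 of 66 genes of the set correlated with it (69.7%, adjusted p under 0.05 over all genes, permutation test), against 9600 of 18793 genes (51.1%). Of these, 31 correlated positively and 15 negatively. All of these points share a mouse and a library with the score, and the muscle and marrow scores themselves correlated at -0.797 over the libraries.

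Dnajb5, a cytosolic J-domain protein, followed the score most closely, with Pearson's r = 0.99 and Spearman's rho = 1.0 (permutation p = 1e-05 for both, the smallest that 100000 permutations can give, adjusted p = 0.000219 and 0.000509). Without the farthest mice, 691 and 694, r was 0.96, and within WT it was 0.97 (exact permutation p = 0.000397, n = 7). Hspb6 had r = 0.98, Dnaja4, a J-domain protein, 0.97, Hspb7 0.93 and Hspb1 0.92. Dnajb1 at -0.89 and Hsp90aa1 at -0.86 ran against the score. The small heat shock proteins and the stress-inducible Dnajb1 and Hsp90aa1 had limb differences of opposite sign in mice 691, 694 and 699.

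Hspa1a, Hspa1b and Dnajb4 followed the score less closely, and Hspb11 showed no relation to it. Hspa1a had r = 0.85 (permutation adjusted p = 0.00514) and rho = 0.67 (adjusted p = 0.0596), with r = 0.52 without mice 691 and 694 and 0.73 within WT (exact permutation p = 0.0651, n = 7). Hspa1b had r = 0.68 and 0.21 without the same mice, and Dnajb4 0.85 and 0.56. Leaving out the mice farthest on the score narrows its range, which can lower r by itself. How far these relations rest on those mice therefore cannot be read from the lower r. Hspb11 had r = 0.08. With the muscle and marrow scores as covariates, the loading difference was 0.62 for Hspa1a (edgeR adjusted p = 0.411), 0.62 for Hspa1b, 0.20 for Dnajb4, 0.41 for Hspb1, 0.30 for Hspb7 and -0.38 for Hspb11. All 12 muscle markers were above 0 in loaded against non-loaded bone over both genotypes (median 0.242), with 12 of 12 in CKO (0.565) and 3 of 12 in WT (-0.078). Some other cell type lists stood to 1 side over both genotypes. Above 0 were 0 of 8 neutrophil markers (median -0.318), 0 of 6 B cell markers (-0.231) and 0 of 4 adipocyte markers (-0.367). The same held for 0 of 8 osteoblast markers (-0.112), 5 of 5 endothelial markers (0.1) and 4 of 6 osteocyte markers (0.062). Most of these lists differed by genotype. B cell markers had 0 of 6 above 0 in CKO (-0.598) and 5 of 6 in WT (0.076). Osteoblast markers had 6 of 8 in CKO (0.068) and 0 of 8 in WT (-0.362). Neutrophil markers had 0 of 8 in CKO (-0.603) and 3 of 8 in WT (-0.044), and osteocyte markers 5 of 6 (0.426) and 2 of 6 (-0.279). Erythroid markers had 0 of 8 above 0 in CKO (-0.466) and 8 of 8 in WT (0.275). The part of these cell types in the results was not tested beyond the muscle and marrow covariates.

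**Figure D4:**
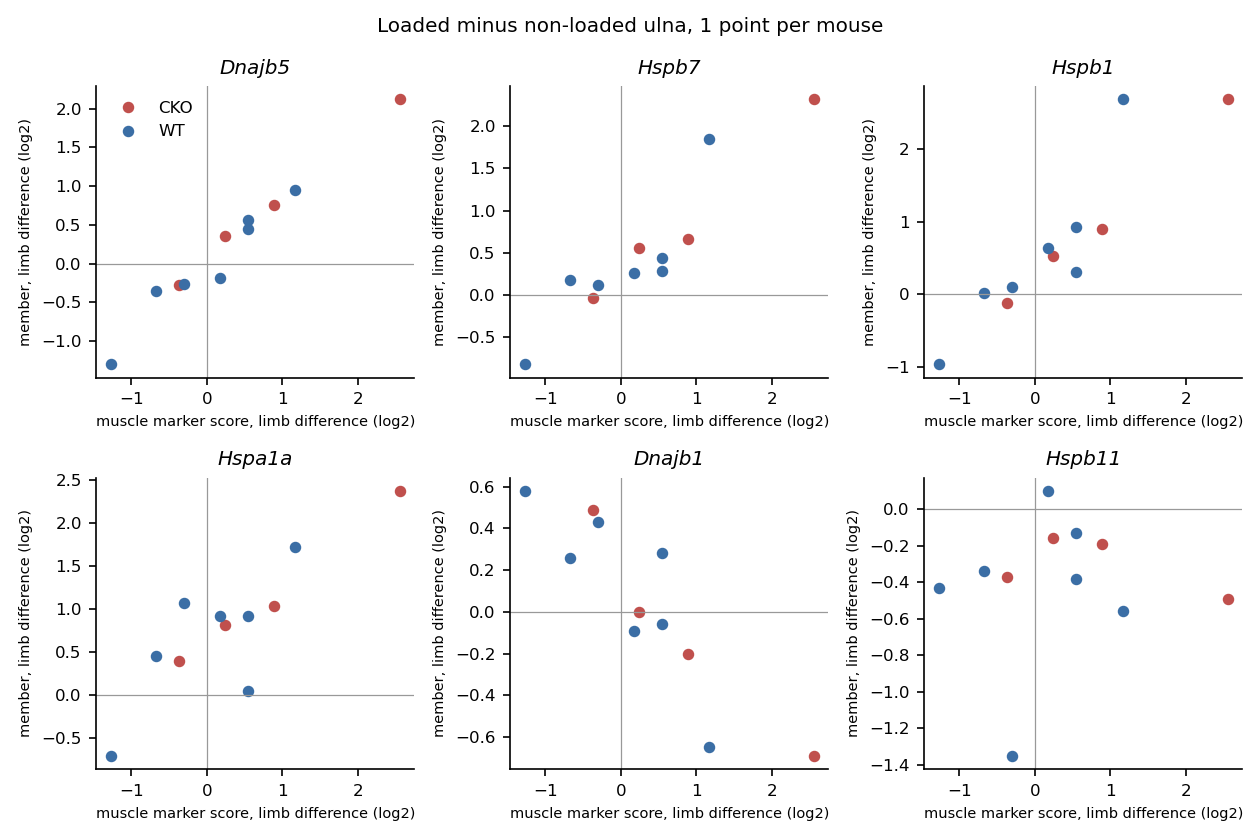
Limb difference (loaded minus non-loaded, log2 CPM) of 6 genes against that of the muscle marker score, 1 point per mouse, red CKO and blue WT. Dnajb5 lies along a rising line (r = 0.99), Dnajb1 along a falling one (r = -0.89), Hspa1a is above 0 in 10 of 11 mice (r = 0.85), and Hspb11 shows no relation (r = 0.08).

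Per mouse, the differences fell into blocks rather than into a response of the whole set. CKO mouse 691 and WT mouse 699 were high for the small heat shock proteins, with 2.69 in both for Hspb1, and low for Dnajb1, at -0.69 and -0.65. WT mouse 694 showed the reverse, with -0.97 for Hspb1 and 0.58 for Dnajb1. CKO mouse 693 lay near 0 for most genes and had 0.81 for Hspa1a.

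**Figure D5:**
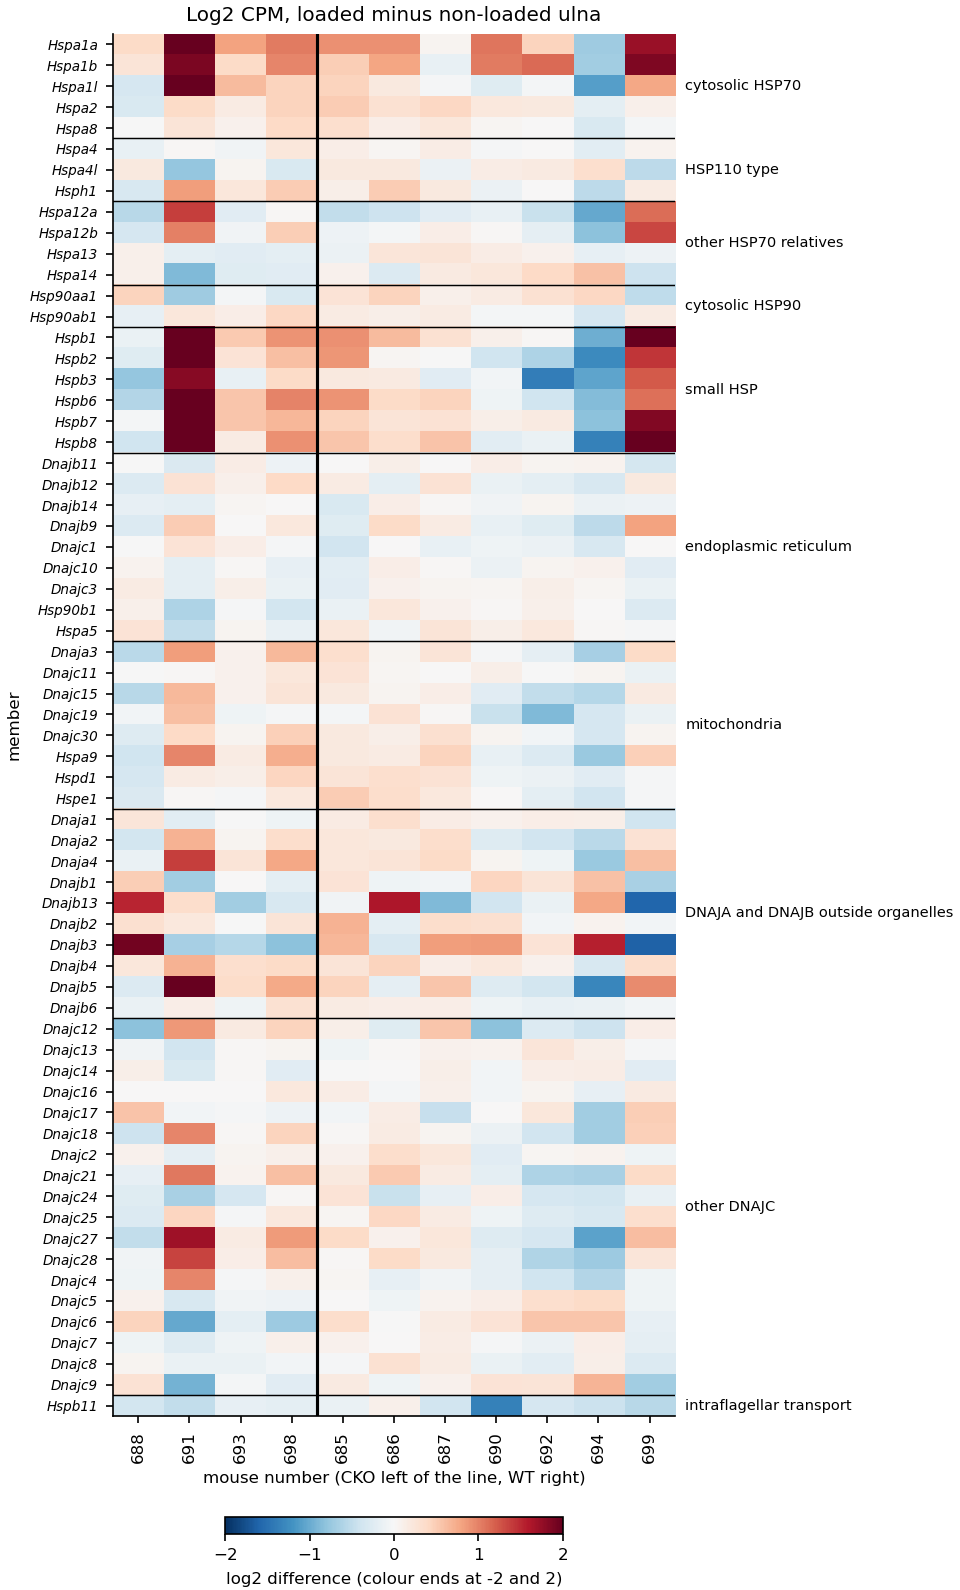
Loaded minus non-loaded log2 CPM for each of the 66 genes tested (rows, by class) in each mouse (columns, CKO left of the line, WT right); red is higher in the loaded bone, blue lower, with colour ending at -2 and 2. The row of Hspa1a is red in 10 of 11 mice, the small heat shock proteins are red in mice 691 and 699 and blue in 694, and most endoplasmic reticulum rows are pale.

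The second question was whether the response to loading differed between the genotypes. No gene of the set was called for the difference of the loading effects, CKO minus WT, nor was any of the 18793 genes (0% called, edgeR). At an unadjusted p under 0.05 it was 1 of 66 (1.52%), against 2.6% of all genes, and DESeq2 and both voom fits called 0 of the set and 0 of all genes. That count of 1 became 7 without CKO mouse 688, 5 without WT mouse 699, 2 without WT mouse 686 and 0 without mouse 690, 691, 692 or 694. Without mice 686 and 688 it was 7, or 10 with the replicate block for the mouse, and the median of the set was 0.258 and 0.247 in these fits, against 0.111 with all mice. With the muscle and marrow covariates the count was 0 and the median 0.006. The share of all genes at an unadjusted p under 0.05 was not counted in these refits either. For this difference all 12 muscle markers were above 0 (median 0.618), and 0 of 8 neutrophil markers were (-0.533). The smallest p was that of Dnajc4, a J-domain gene. It had 6, 9.79, 8.46 and 9.08 CPM in CKO loaded bones, against 6.38, 4.95, 8.64 and 8.47 CPM in non-loaded bones, and in WT 6.11, 7.02 and 7.52 CPM in loaded bones, against 6.78, 8.43 and 9.55 CPM in non-loaded bones. The CKO difference rested on mouse 691, with 0.97 against -0.09 to 0.10 in the other CKO mice. The interaction was 0.45 ± 0.21 (SE, edgeR adjusted p = 0.697) and lay between 0.22 and 0.58 over the settings tried.

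For Hspa1a the loading effect in CKO minus that in WT was 0.41 ± 0.46, with a 95% interval from -0.54 to 1.37, and for Dnajb4 it was 0.24 ± 0.17, from -0.12 to 0.60. Hspb1 had 0.23 ± 0.60, from -1.01 to 1.48, so a 2-fold difference in either direction lies inside its interval. Only 26 of 66 intervals lay within 1.5-fold and 47 within 2-fold. At a mean of 5 CPM or more, Dnajb5, Hspa1l and Hspb2 had the largest positive estimates, 0.65, 0.61 and 0.60. Each of their 95% intervals holds 0. Dnajc5 stood at -0.21, with an interval from -0.48 to 0.06. Hspa14, a ribosome-associated HSP70 relative, stood at -0.47 ± 0.24 and Dnajc6, auxilin, which uncoats clathrin vesicles, at -0.73 ± 0.42, neither past the threshold. Both were smaller with the muscle and marrow covariates, at -0.13 for Hspa14 and -0.18 for Dnajc6, and without CKO mouse 691, at -0.23 and -0.39.

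The third question was how the genotypes differed in bones of the same kind. In loaded bone no gene of the set was called between CKO and WT (edgeR, 0% of all genes called), and 3 of 66 had an unadjusted p under 0.05 (4.55%, against 6.81% of all genes). That count of 3 became 11 without CKO mouse 688, 6 without WT mouse 686 or CKO mouse 691, 1 without WT mouse 694 or CKO mouse 698, and 14 without mice 686 and 688. It was 15 under voom with quality weights, 13 with only the loaded bones fitted, 11 with DESeq2 and 2 with the muscle and marrow covariates. For these other fits the share of all genes at this cutoff was not counted, so a change in the set alone cannot be read from them. Dnajc28, a J-domain gene, had 11.6, 13.6, 13.1 and 17.8 CPM in CKO loaded bones, against 7.64, 9.26 and 12.7 CPM (lowest, median and highest) in WT loaded bones. The groups overlapped in their margins, and the log2 fold change was 0.54 ± 0.20 (SE, edgeR adjusted p = 0.601). The mitochondrial chaperones Hspa9 and Dnaja3, which work as a pair of HSP70 and J-domain protein, had 0.42 ± 0.19 and 0.41 ± 0.19. Their limb differences correlated with that of the muscle score at r = 0.95 and 0.92, and muscle marker shares were 9.25% to 12.7% in CKO loaded and 4.52% to 12.2% in WT loaded bones, with 11 of 12 muscle markers above 0 (median 0.642). With the muscle and marrow covariates the log2 fold changes were 0.19 for Hspa9, 0.19 for Dnaja3 and 0.25 for Dnajc28. Without CKO mouse 698 they were 0.28, 0.25 and 0.40, and without mice 686 and 688 they were 0.61, 0.59 and 0.71 for the same genes. Dnajc21 and Dnajc19 had 0.44 and 0.29, and Hspa1a stood at -0.13 ± 0.32 in loaded bone.

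In non-loaded bone no gene of the set was called either (edgeR, 0% of all genes), with 1 of 66 at an unadjusted p under 0.05 (1.52%, against 3.04%). The count was 7 without WT mouse 699, and also 7 with all mice under voom with quality weights. It was 3 without CKO mouse 688, 2 without WT mouse 694 or CKO mouse 698, and 3 without mice 686 and 688. Without mouse 686, 687, 691, 692 or 693 alone it was 0. Here too the share of all genes was counted only for the main fit. In these bones 0 of 8 osteoblast markers (median -0.72) and 0 of 6 osteocyte markers (-0.618) were above 0, and their part in the results was not tested. The gene was Dnajc1, a J-domain protein of the endoplasmic reticulum membrane, with 38.6, 27, 33.2 and 35.5 CPM in CKO and 31.5, 38.9 and 48.5 CPM in WT non-loaded bones. Its log2 fold change was -0.25 ± 0.11 (SE, edgeR adjusted p = 0.976). Hspa1a had 8.03 ± 3.39 CPM in CKO and 11.6 ± 3.87 CPM in WT non-loaded bones (SD, n = 4 and n = 7), a log2 fold change of -0.54 ± 0.33. Within 1.5-fold lay the intervals of 41 of 66 genes in loaded and 47 of 66 in non-loaded bone. DESeq2 and both voom fits called 0 of the set in both comparisons.

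Other genes of protein quality control were read beside the set, and 0 of them were called for loading over both genotypes. Of 5 heat shock factor genes tested 4 were above 0 (median 0.062), and of 20 HSP90 co-chaperones 13 (median 0.035). Of 16 HSP70 exchange factors and adaptors 12 were above 0 (median 0.036), led by Bag3, a partner of Hspb8 and HSP70, at 0.40 ± 0.19 (SE, edgeR adjusted p = 0.999). Bag3 averaged 87.6 ± 28.7 CPM in loaded and 59.0 ± 21.5 CPM in non-loaded bones of CKO mice (SD, n = 4), and 65.7 ± 13.8 CPM in loaded and 56.4 ± 17.6 CPM in non-loaded bones of WT mice (SD, n = 7). Of 23 genes of the endoplasmic reticulum stress response 8 were above 0 (median -0.065), and Atf4, the transcription factor of the integrated stress response, had 0.18 ± 0.07 (SE, edgeR adjusted p = 0.999). Of 14 genes of mitochondrial protein quality control 13 were above 0 (median 0.075), and of 8 tested subunits of the TRiC chaperonin 3 (median -0.005). Cryab, alpha-B crystallin, a small heat shock protein of muscle and lens, stood at 0.59 ± 0.25 (SE, edgeR adjusted p = 0.999), close to the estimates of Hspb1 and Hspb7.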

How the data were processed

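The authors deposited 1 table of estimated counts per gene for each library, written as whole numbers; rounding changed 0 values. Per the labels' protocols, bones went into RNAlater, were ground in Trizol in a liquid nitrogen mill, and gave stranded total RNA libraries. STAR and RSEM were used with GRCm38, per the submitters' processing notes; no version or annotation is given in the sources used here. Of 25471 gene identifiers 25428 matched a symbol, and coordinates and exon lengths come from GENCODE M21. RSEM divides reads shared by near-identical genes, which touches Hspa1a and Hspa1b.

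Groups and mouse numbers came from the labels. In edgeR 4.0.16 (R 4.3.3, limma 3.58.1), 18793 genes passed filterByExpr, scaling was by TMM, and the quasi-likelihood functions glmQLFit (robust) and glmQLFTest fitted all 22 libraries together with 1 coefficient per group (18 residual degrees of freedom; coefficient of biological variation 0.271). Two-sided p-values were adjusted over all genes tested after Benjamini-Hochberg and called under 0.05. The SE of each log2 fold change was taken as its absolute value over the root of F, and 95% intervals use the test's own degrees of freedom. Limb differences per mouse are log2 CPM with a prior count of 2. TPM, used to compare levels between genes, divided counts by the joined exon length of a gene and is approximate. The p-values of this fit measure the spread between the libraries of a group, each from another mouse, and do not use the pairing of limbs.

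Named genes were, per contrast, those with the smallest p and the largest changes at 5 CPM or more, with a core of main chaperones and the most abundant members. Not every named gene is described for each contrast that named it. Members, gene lists and marker lists were chosen with earlier results of these data known. Both limbs of a number come from 1 mouse, so the numbers pair the samples by animal; their deviations from group means correlated at -0.256 to 0.415 (median 0.189), over 0.1 in 7 of 11 mice. Alternatives were a replicate block for the mouse, other scalings and filters, DESeq2 1.42.0, limma voom (quality weights, or mice as random effects), covariates for muscle and marrow content, and leaving out each mouse. The muscle score alone as a covariate, the block without pairs of mice and the sum of Hspa1a and Hspa1b were added after seeing the data. Fits were tested on simulated data, with counts drawn independently for each library. The simulation held no effect shared by the limbs of a mouse and no differences in muscle or marrow content, so it does not test the fits under these. Some symbols of the rule, such as Dnajb8, were not analysed here.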

Additional observations from a re-analysis of the deposited data

Results flagged for a closer look

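Among 39 named chaperone genes, each group of 4 or 7 libraries was searched for a library that stands apart from the rest by its gap to the nearest one. This found 14 in 156 groups (8.97%). Chance gives about 1 in 20 for unselected, independent groups, a rate that does not hold here, since the genes were named partly for large changes or small p and share their libraries. The non-loaded library of CKO mouse 691 held 8 of them, all low. They were Hspb7 at 84.5 CPM, Hspb8 at 23.6 CPM, Hspb2 at 3.38 CPM, Dnaja4 at 29.1 CPM, Dnajb9 at 20.9 CPM, Dnajc21 at 11.1 CPM, Hspa12a at 7.43 CPM and Dnajc28 at 5.3 CPM. This library also had the lowest share of skeletal muscle markers, 2.31% of counts; their part in these values was not tested.

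The non-loaded library of WT mouse 699 held 5. It was high for Dnajb1 at 46.6 CPM, Hspa4l at 45.4 CPM, Dnajc9, a histone co-chaperone, at 38.4 CPM and Hspa14 at 30 CPM, and low for Hspa12a at 8.28 CPM. Its muscle marker share, 3.68%, was the lowest of the WT libraries. The last was the loaded library of CKO mouse 693, which was low for Hsp90aa1 at 117 CPM in a group that otherwise lay between 131 and 133 CPM.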

How the results depend on the processing

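No gene of the set was called in any comparison under any of the 25 to 31 settings tried per comparison, so the 6 counts of 0 stayed at 0. The replicate block, which pairs the limbs of a mouse, was fitted for the 4 loading comparisons; for CKO against WT, whose groups share no mouse, no paired fit exists. The lowest adjusted p of a member over these settings was 0.253 for loading in CKO, 0.0696 in WT and 0.0834 over both genotypes, 0.258 for the difference of the loading effects, and 0.127 and 0.29 for CKO against WT in loaded and non-loaded bone; the values for WT, for both genotypes and for the genotype comparisons came from voom with quality weights. Of 48 single values 40 kept their sign under all of these settings. Hspa1a for loading over both genotypes lay between 0.60 and 0.99 (0.89 with the replicate block), Hspa1b between 0.50 and 0.93, Dnajb4 between 0.20 and 0.32, and Hspb11 between -0.49 and -0.31. Hspb1 lay between 0.30 and 0.91 and Hspb7 between 0.23 and 0.75.

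The other 8, all for loading over both genotypes and none past the threshold, changed sign. In the order voom with quality weights, voom with the mouse as a random effect, replicate block, both covariates, block with both covariates, without mice 691 and 699, muscle score alone, and block without mice 691 and 699, Hspa5 (-0.01) had 0.07, 0.02, 0.01, 0.08, 0.04, 0.08, 0.09 and 0.09. In the same order Hsp90aa1 (-0.05) had 0.09, 0.02, 0.01, 0.10, 0.11, 0.14, 0.15 and 0.15, and Dnajb1 (-0.03) had 0.11, 0, 0, 0.12, 0.11, 0.17, 0.17 and 0.16. In the order quality weights, both covariates, block with both, without mice 691 and 699, muscle score alone, and block without those mice, Dnajb9 (0.08) had -0.08, -0.03, -0.01, -0.07, -0.02 and -0.07, and Dnajc3 (-0.01) had 0.03, 0.03, 0.04, 0.02, 0.04 and 0.03. Hspe1 (0.02) had -0.02, -0.05, -0.05 and -0.02 with quality weights, both covariates, block with both, and the muscle score alone. Hspb2 (0.26) had 0 with both covariates, -0.03 with the block as well, and -0.01 with the block without mice 691 and 699. Dnaja1 (0.01) had -0.04 without mice 686 and 688 and -0.03 with the block as well. Leaving out 1 mouse at a time gave -0.06 to 0.07 for Hspa5, -0.13 to 0.07 for Hsp90aa1, -0.03 to 0.06 for Hspe1, -0.02 to 0.07 for Dnaja1, -0.11 to 0.10 for Dnajb1, 0 to 0.14 for Dnajb9 and -0.04 to 0.02 for Dnajc3. The cause of these changes was not tested.

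With 4 CKO mice, 26 of 66 intervals for the difference between the genotypes' loading effects lay within 1.5-fold. Depth limits the low members: Dnajb13 had 3 to 19 counts in a library, and its log2 CPM moved by up to 0.617 with a prior count of 0.5 in place of 2. Other scalings shifted the median of all genes by at most 0.028 on the log2 scale.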
